A study of Mus musculus with 24 samples.

Results

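Secreted signalling proteins of inflammation, encoded by Il6, Lif, Ccl2, Ccl7, Ccl3, Ccl4, Ccl5, Ccl20, Cxcl1 and Cxcl2, were followed at the mRNA level in cultured mouse neurons and astrocytes under ER stress. The members were taken by gene name, and 10 of the 32728 genes listed in the deposited tables are members. RNA was sequenced from 24 libraries in 8 groups of 3. The groups were Perk KO neurons with tunicamycin (TM), Perk KO neurons without it (control), WT neurons with TM, WT neurons without it, and the same 4 groups of astrocytes. All cultures came from mice whose Perk gene (Eif2ak3) carries loxP sites on both alleles (PerkloxP/loxP). All were also transduced with a lentivirus in culture. Perk KO cultures received active Cre recombinase, which removes DNA between loxP sites, and WT cultures the inactive ΔCre form, so WT cells are virus-treated loxP cells and not untouched wild type. TM was given at 5 µg/mL for 24 h at day in vitro 14, controls received the solvent DMSO, and the series' design text gives the exposure as 20 to 24 h. The age of the animals and the promoter of the lentivirus are not given in the labels, and the titles number 3 biological replicates in each group with no word on their origin. If they share a culture or animal, the p-values below cover technical spread alone.

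TM blocks N-linked glycosylation, so that unfolded proteins accumulate in the ER. PERK is an ER membrane kinase that then phosphorylates eIF2 and lowers protein synthesis, while mRNAs of a stress programme led by ATF4 are still translated. Cytokine and chemokine genes are mostly switched on by NF-kB, together with AP-1 and C/EBP factors, and their mRNAs are short-lived. Il6 and Lif encode cytokines that signal through the shared receptor chain gp130 (Il6st) to STAT3. Ccl2 and Ccl7 attract monocytes through CCR2, Ccl3, Ccl4 and Ccl5 attract monocytes and T cells, Ccl20 binds CCR6, and Cxcl1 and Cxcl2 attract neutrophils through CXCR2. Astrocytes and microglia are the usual sources of these proteins in inflamed brain tissue.

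Several members are neighbours in the genome. In the deposited coordinates (GRCm38), Ccl2 (ENSMUSG00000035385, chr11:82035571-82037453, plus strand) lies 8.26 kb from Ccl7 (ENSMUSG00000035373, chr11:82045712-82047525, plus strand). On the same chromosome lie Ccl5 (ENSMUSG00000035042, chr11:83525778-83530518, minus strand), Ccl3 (ENSMUSG00000000982, chr11:83647844-83649355, minus strand), Ccl4 (ENSMUSG00000018930, chr11:83662584-83664683, plus strand) and Lif (ENSMUSG00000034394, chr11:4257557-4272514, plus strand). Ccl3 and Ccl4 are 13.2 kb apart. Cxcl1 (ENSMUSG00000029380, chr5:90891241-90893115, plus strand) is 10.8 kb from Cxcl2 (ENSMUSG00000058427, chr5:90903871-90905938, plus strand). Il6 (ENSMUSG00000025746, chr5:30013114-30019981, plus strand) and Ccl20 (ENSMUSG00000026166, chr1:83116766-83119167, plus strand) stand alone. All 10 are annotated as protein-coding.

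RefSeq promoter windows (GRCm38.p6, 250 bases before to 50 after the start) were at hand for 6 members, namely Il6, Lif, Ccl3, Ccl20, Cxcl1 and Cxcl2. A match to the NF-kB consensus, searched on both strands, was found in 5 of the 6, all but Ccl3, against 8.46% of all 32851 windows. The AP-1 motif TGANTCA was found in 2 (Il6 and Lif), against 7.81% of windows. The cyclic AMP response element TGACGTCA (1.79% of windows), the C/EBP-ATF motif TGATGNAA (3.97%) and TATAAA (13.6%) had a match in 0 of the 6. A match describes letters and is not a measured binding site. The following 120-base stretches are shown because they hold these matches. Each is the plus strand, 5′ to 3′, and capitals mark an NF-kB match, or in Lif also the AP-1 match.
Cxcl1, chr5:90891125-90891244: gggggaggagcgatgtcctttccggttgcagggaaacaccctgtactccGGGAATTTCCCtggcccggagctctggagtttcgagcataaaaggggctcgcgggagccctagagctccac
Cxcl2, chr5:90903779-90903898: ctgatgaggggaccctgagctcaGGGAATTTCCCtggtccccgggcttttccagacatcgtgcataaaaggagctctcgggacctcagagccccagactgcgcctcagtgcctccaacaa
Il6, chr5:30012994-30013113: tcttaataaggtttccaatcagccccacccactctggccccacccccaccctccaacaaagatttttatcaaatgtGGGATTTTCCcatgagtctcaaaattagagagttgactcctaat
Ccl20, chr1:83116646-83116765: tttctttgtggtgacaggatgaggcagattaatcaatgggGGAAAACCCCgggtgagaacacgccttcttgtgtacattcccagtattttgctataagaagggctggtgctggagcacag
Lif, chr11:4257328-4257447: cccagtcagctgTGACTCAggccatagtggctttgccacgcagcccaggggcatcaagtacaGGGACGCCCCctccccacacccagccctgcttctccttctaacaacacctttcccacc
Cxcl1 and Cxcl2 carry the same GGGAATTTCCC, which holds overlapping matches on both strands and starts 71 bases upstream of the start in Cxcl1 and 97 bases upstream in Cxcl2. The Il6 match starts 44 bases upstream, the Ccl20 match 80 and the Lif match 178.

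Total counts ranged from 16 to 25.9 M per library. Levels are CPM, read counts scaled to a common library total with TMM over all 24 libraries. Differences are log2 differences ± standard error from edgeR's quasi-likelihood test on raw counts, and a gene was called at a Benjamini-Hochberg adjusted p under 0.05 over all genes tested. Where libraries of 2 groups are said not to overlap, this only describes the single values. The share of all genes without overlap was not counted, so it adds no support to a call. Eif2ak3 itself averaged 12.4 ± 3.19 CPM in Perk KO neurons with TM and 133 ± 7.17 CPM in WT neurons with TM, and 5.38 ± 0.394 CPM in Perk KO control neurons against 37.4 ± 3.58 CPM in WT control neurons (SD, n = 3 each). In astrocytes it averaged 13.5 ± 2.17 CPM in Perk KO and 87.7 ± 15.0 CPM in WT cultures with TM, and 6.71 ± 0.814 CPM in Perk KO against 26.1 ± 1.70 CPM in WT controls. The 12 neuron markers summed to 3944 to 7969 CPM in neuron libraries and 242 to 376 CPM in astrocyte libraries. The 12 astrocyte markers summed to 1090 to 5759 CPM in neuron libraries and 757 to 4892 CPM in astrocyte libraries, so the neuron cultures held as much astrocyte marker RNA as the astrocyte cultures. The 16 microglia and macrophage markers summed to 57.8 to 165 CPM in neurons and 30.7 to 291 CPM in astrocytes, and replicate 1 of each astrocyte group had the highest sum of its group. In bulk RNA, fewer cells of a type and less RNA per cell cannot be told apart.

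**Figure D1:**
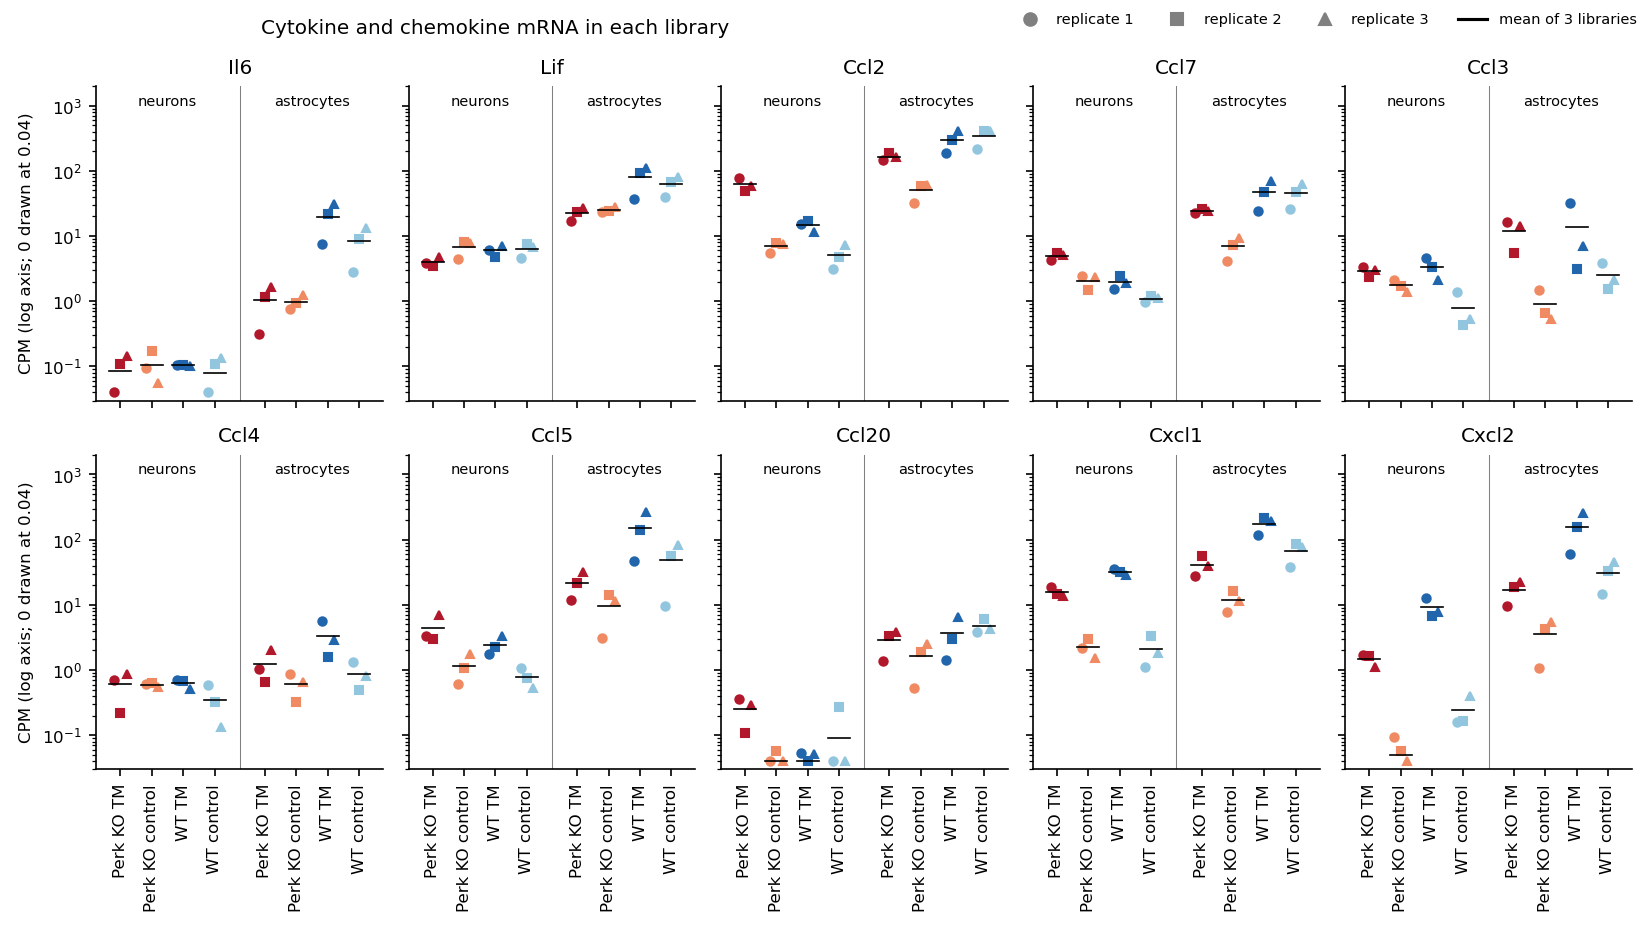
CPM of each member in each of the 24 libraries, on a log axis, with neurons left of the line and astrocytes right of it in each panel; points are libraries, marked by replicate number, and bars are group means. Astrocyte libraries lie above neuron libraries for most members, and Cxcl1 and Cxcl2 are higher with TM than in controls in every pair of groups.

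Astrocyte cultures held far more of these mRNAs than neuron cultures. In controls of WT cultures, 9 of the 10 members were lower in neurons than in astrocytes and 0 were higher, where 35.2% of the 15817 tested genes were lower and 35.8% higher. Il6, Ccl20 and Cxcl2 had 4, 5 and 12 counts in the 3 neuron libraries. They entered the test only through the astrocyte libraries, so they could only come out lower in neurons. Ccl2 had 3.17, 4.73 and 7.24 CPM in WT control neurons, against 218, 404 and 402 CPM in WT control astrocytes, a log2 difference of -6.05 ± 0.36 (66.4-fold lower in neurons, adjusted p = 7.8e-07). Ccl7 was 40.4-fold lower and Ccl5 59.4-fold lower in neurons. Cxcl1 had 1.13, 3.37 and 1.86 CPM in the neurons, against 38.0, 85.6 and 77.0 CPM in the astrocytes (-4.93 ± 0.42, adjusted p = 7.7e-06). Every neuron library lay below every astrocyte library for these 4 genes. Lif was 9.51-fold lower in neurons (-3.25 ± 0.29). Ccl4 did not pass the test (-1.24 ± 0.58, adjusted p = 0.083). Some microglia markers differed in the same direction, with 7 of 14 tested lower and 1 higher in neurons, while 4 of 12 astrocyte markers were higher and 5 lower. Markers of fibroblasts and mural cells summed to 507 to 537 CPM in these neurons, against 1328 to 1509 CPM in the astrocytes. The part of these cell types in the difference was not tested.

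The order of the cell types held for most members in the other conditions. With TM, 10 of 10 members were lower in WT neurons than in WT astrocytes (background 33.9% lower and 36.6% higher). The range ran from Ccl3 (-1.92 ± 0.75, adjusted p = 0.046) to Il6 (-7.38 ± 0.72, adjusted p = 2.5e-05), a fitted value that rests on 6 counts in all 3 neuron libraries. In Perk KO controls, 8 of 10 were lower in neurons (33.9% lower, 35.4% higher), all but Ccl3 (0.98 ± 0.43, adjusted p = 0.063) and Ccl4 (-0.01 ± 0.46). In Perk KO cultures with TM, 9 of 10 were lower (26.3% lower, 29.7% higher), all but Ccl4 (-0.98 ± 0.58, adjusted p = 0.19). In each of these comparisons Il6 and Ccl20 entered only through the astrocyte libraries, as did Cxcl2 in Perk KO controls. The median log2 difference of the members was -5.41 in WT controls, -4.13 in WT with TM, -2.62 in Perk KO controls and -2.24 in Perk KO with TM, against medians of all tested genes between -0.03 and 0.01. Ccl3 was the fragile call: in WT controls it was lost without WT control neurons replicate 2 or 3 or WT control astrocytes replicate 1 (adjusted p = 0.069 to 0.078). In WT with TM it was lost without any 1 of the 3 neuron libraries or without astrocytes replicate 1 (0.072 to 0.28).

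Per kilobase of gene length, Ccl2 led in 7 of the 8 groups. In WT control astrocytes it reached 300 ± 94.0 CPM per kb, above Ccl7 (57.1 ± 23.7), Ccl5 (51.5 ± 38.8) and Cxcl1 (35.7 ± 13.5), whose libraries overlap in that order. Cxcl2 followed at 15.0 ± 7.46 and Lif at 14.4 ± 4.75, which overlap, and Il6, Ccl20, Ccl3 and Ccl4 lay between 3.44 and 1.32 CPM per kb. In WT neurons with TM, Cxcl1 led at 17.0 ± 1.87 CPM per kb, above Ccl2 at 12.8 ± 2.57, without overlap. In Perk KO neurons with TM, Ccl2 led at 54.7 ± 13.1 CPM per kb, above Cxcl1 at 8.29 ± 1.41, also without overlap. The member with the highest level in TM-treated neurons was thus a different one in the 2 genotypes. Il6 and Ccl20 were near nothing in neurons: Il6 had 0 to 3 counts and Ccl20 0 to 9 counts in each of the 12 neuron libraries. Il6 summed to 6 counts in TM-treated and 4 counts in control WT neurons, a rate ratio of 1.54 with an exact 95% interval of 0.366 to 7.43 that covers counting error only. Ccl20 summed to 17 counts in TM-treated and 1 count in control Perk KO neurons, a rate ratio of 15.9 (2.50 to 665). Neither was tested in any comparison within neurons.

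In WT neurons, TM was followed by more mRNA of 6 of the 7 members tested, and 0 were lower, against 27.0% of 15546 tested genes higher and 24.8% lower. The CXCR2 ligands rose most. Cxcl2 had 12.7, 6.84 and 7.85 CPM with TM, against 0.161, 0.163 and 0.398 CPM in controls (5.40 ± 0.41, 42.3-fold, adjusted p = 1.6e-05). The controls hold only 3, 3 and 6 counts of Cxcl2. Cxcl2 entered the test only through the TM libraries, so among the 6 it could only come out higher. Summed over libraries, 523 counts with TM stand against 12 in controls, a rate ratio of 44.8 (25.4 to 87.3). Cxcl1 had 35.3, 31.9 and 28.3 CPM with TM, against 1.13, 3.37 and 1.86 CPM in controls (4.05 ± 0.31, 16.6-fold, adjusted p = 1.5e-05). No TM library overlapped a control library for either gene.

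The CC chemokines of WT neurons rose by less. Ccl2 had 15.2, 17.1 and 11.4 CPM with TM, against 3.17, 4.73 and 7.24 CPM in controls (1.68 ± 0.29, 3.21-fold, adjusted p = 0.0014). Ccl3 averaged 3.37 ± 1.25 CPM with TM and 0.788 ± 0.531 CPM in controls (2.21 ± 0.47, adjusted p = 0.0042). Ccl5 averaged 2.45 ± 0.790 CPM with TM and 0.789 ± 0.274 CPM in controls (1.76 ± 0.37, adjusted p = 0.0037). Ccl7 averaged 1.94 ± 0.431 CPM with TM and 1.10 ± 0.117 CPM in controls (0.97 ± 0.29, adjusted p = 0.020), and its call was lost without WT control neurons replicate 1 or WT TM-treated neurons replicate 2 (adjusted p = 0.076 and 0.082) and with DESeq2. The groups did not overlap for any of these 4. Lif, at 6.0 ± 1.07 CPM with TM and 6.40 ± 1.58 CPM in controls, did not pass the test (0.06 ± 0.23, adjusted p = 0.84). Ccl4 was under the limit of a mean of 10 counts and was not tested, with 36 counts in TM libraries and 19 in controls. Microglia markers went the other way, with 0 of 11 tested higher and 5 lower, Cx3cr1 (-2.52 ± 0.55) and C1qb (-2.83 ± 0.28) among them, and their sum was 57.8 to 68.3 CPM with TM against 71.7 to 109 CPM in controls. Of the 12 astrocyte markers, 11 fell and 0 rose.

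In Perk KO neurons, TM was followed by a rise of 5 of the 8 members tested and 0 falls, against 13.1% of 16197 tested genes higher and 10.8% lower. Ccl2, and not a CXCR2 ligand, reached the highest level of the members. It had 78.3, 48.9 and 59.5 CPM with TM, against 5.50, 7.83 and 7.44 CPM in controls (3.21 ± 0.22, 9.24-fold, adjusted p = 2e-04). Cxcl1 had 18.5, 14.6 and 13.5 CPM with TM, against 2.14, 2.99 and 1.54 CPM in controls (2.85 ± 0.25, 7.19-fold, adjusted p = 0.00049). Cxcl2 had 1.71, 1.65 and 1.13 CPM with TM, against 0.0932, 0.0576 and 0 CPM in controls (4.72 ± 0.62, adjusted p = 0.002). Those controls hold 3 counts of Cxcl2 in all, against 96 with TM, and the rate ratio of 30.0 has an interval of 9.95 to 148. Here too Cxcl2 entered the test only through the TM libraries, so among the 5 it could only come out higher. For all 3 genes every TM library lay above every control library.

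Ccl7 and Ccl5 also rose in Perk KO neurons. Ccl7 averaged 4.99 ± 0.594 CPM with TM and 2.08 ± 0.506 CPM in controls (1.29 ± 0.26, adjusted p = 0.0098). Ccl5 averaged 4.43 ± 2.20 CPM with TM and 1.15 ± 0.582 CPM in controls (1.98 ± 0.48, adjusted p = 0.021), a call lost without Perk KO control neurons replicate 1 or 2 or Perk KO TM-treated neurons replicate 3 (adjusted p = 0.077 to 0.079). Ccl3 (0.77 ± 0.28, adjusted p = 0.081), Lif (-0.72 ± 0.28, adjusted p = 0.098) and Ccl4 (0.08 ± 0.51) did not pass the test. Ccl3 passed it without 1 library (0.049), and so did Lif (0.038). Of 14 microglia markers tested, 0 rose and 5 fell with TM.

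TM-treated neurons of the 2 genotypes held different amounts of 4 chemokines. Set against WT neurons with TM, Perk KO neurons with TM had more of 2 members and less of 2 among the 8 tested. These counts are near the shares of all 16026 tested genes, 20.7% higher and 19.4% lower. Ccl2 had 78.3, 48.9 and 59.5 CPM in Perk KO neurons, against 15.2, 17.1 and 11.4 CPM in WT neurons (2.09 ± 0.22, 4.25-fold, adjusted p = 0.00022). Ccl7 had 4.33, 5.48 and 5.15 CPM in Perk KO neurons, against 1.54, 2.40 and 1.89 CPM in WT neurons (1.34 ± 0.25, adjusted p = 0.0032). The CXCR2 ligands differed in the other direction. Cxcl2 had 1.71, 1.65 and 1.13 CPM in Perk KO neurons, against 12.7, 6.84 and 7.85 CPM in WT neurons (-2.61 ± 0.31, 6.12-fold lower in the Perk KO, adjusted p = 0.00038). Cxcl1 had 18.5, 14.6 and 13.5 CPM in Perk KO neurons, against 35.3, 31.9 and 28.3 CPM in WT neurons (-1.04 ± 0.16, 2.06-fold lower, adjusted p = 0.0015). The genotypes overlapped for none of these 4 genes.

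The other members tested in TM-treated neurons did not pass the test between genotypes. Lif averaged 4.02 ± 0.634 CPM in Perk KO and 6.0 ± 1.07 CPM in WT neurons (-0.59 ± 0.22, adjusted p = 0.067), and Ccl5 4.43 ± 2.20 CPM in Perk KO and 2.45 ± 0.790 CPM in WT neurons (0.84 ± 0.39, adjusted p = 0.12). Deviations of same-numbered libraries correlated at 0.13 to 0.30 between these 2 groups, over the limit of 0.1 set for pairing. Single pairs reached 0.22 between TM and control neurons and 0.19 between cell types. The titles give no shared origin for a number, so pairing is not established. With the number as a block 3 members were higher and 3 lower, Lif (adjusted p = 0.038) and Ccl5 (0.034) being added. The block called 24.0% of all tested genes higher and 22.8% lower. Ccl3 (-0.22 ± 0.32) and Ccl4 (-0.04 ± 0.52) did not pass the test. Markers of other cell types differed between the same groups. Astrocyte markers were higher in Perk KO neurons with TM in 12 of 12 cases, their sum being 4522 to 5759 CPM against 1090 to 1179 CPM in WT neurons, and microglia markers in 8 of 11, with sums of 91.7 to 137 CPM against 57.8 to 68.3 CPM. Fibroblast and mural cell markers summed to 317 to 334 CPM in Perk KO against 150 to 180 CPM in WT neurons with TM. Oligodendrocyte lineage markers summed to 293 to 365 CPM against 117 to 163 CPM, and neuron markers to 4250 to 4513 CPM against 3944 to 4155 CPM. The part of these cell types in the Ccl2 and Ccl7 difference was not tested.

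In control neurons 1 of 6 members tested was higher in Perk KO than in WT cultures and 0 were lower. These counts are near the shares of all 15757 tested genes, 12.2% higher and 9.16% lower. The member called was Ccl7, with 2.42, 1.5 and 2.32 CPM in Perk KO neurons, against 0.968, 1.20 and 1.13 CPM in WT neurons (0.99 ± 0.30, adjusted p = 0.048). The call was lost without WT control neurons replicate 1 or 2 or any 1 of the 3 Perk KO libraries (adjusted p = 0.061 to 0.14). It was lost also with DESeq2 (0.052) and with a correction for GC content (0.26). Ccl3 averaged 1.75 ± 0.383 CPM in Perk KO and 0.788 ± 0.531 CPM in WT neurons (1.19 ± 0.45, adjusted p = 0.091). With the replicate block Ccl7 was lost (0.058) and Ccl3 was the 1 member called (1.28, adjusted p = 0.043), against 16.6% of all tested genes higher and 13.9% lower. Ccl2 (0.53 ± 0.30), Ccl5 (0.58 ± 0.47), Lif (0.15 ± 0.28) and Cxcl1 (0.13 ± 0.41) did not pass the test. Without WT control neurons replicate 3, Ccl2 was called beside Ccl7 (adjusted p = 0.016), which makes 2 members, and without WT control neurons replicate 1 Ccl3 was called (0.049). Microglia markers were higher in Perk KO control neurons in 7 of 13 cases, Ptprc (3.34 ± 0.46) and Tyrobp (1.15 ± 0.27) among them.

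**Figure D2:**
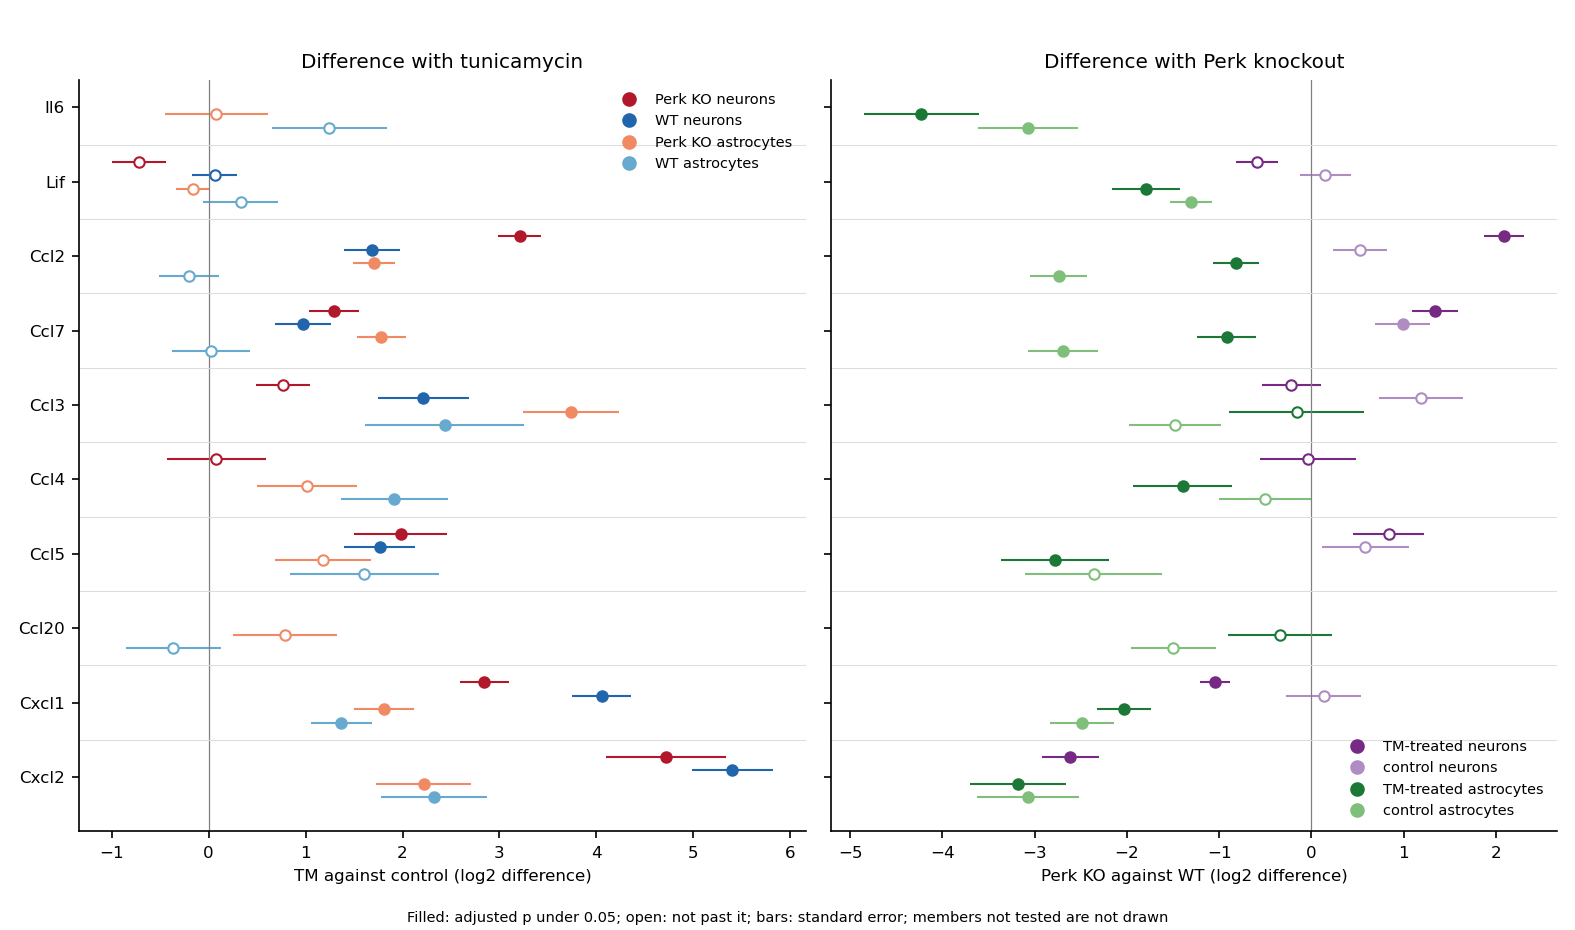
Log2 difference of each member with TM (left panel) and with Perk knockout (right panel), as points with their standard errors; filled points passed an adjusted p of 0.05. In the left panel most points lie right of 0, and in the right panel Ccl2 and Ccl7 lie right of 0 in neurons and left of 0 in astrocytes.

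In WT astrocytes, TM was followed by a rise of 4 of 10 members and 0 falls, against 25.0% of 14907 tested genes higher and 27.7% lower. Cxcl2 had 59.2, 157 and 256 CPM with TM, against 14.8, 32.9 and 45.5 CPM in controls (2.33 ± 0.55, 5.02-fold, adjusted p = 0.0086). Cxcl1 had 117, 213 and 193 CPM with TM, against 38.0, 85.6 and 77.0 CPM in controls (1.37 ± 0.31, 2.58-fold, adjusted p = 0.0077). All TM libraries lay above all controls for both genes. Ccl3 had 31.6, 3.11 and 7.05 CPM with TM, against 3.92, 1.53 and 2.12 CPM in controls (2.43 ± 0.82, adjusted p = 0.036), and its groups overlap. Ccl4 had 5.58, 1.58 and 2.94 CPM with TM, against 1.32, 0.493 and 0.797 CPM in controls (1.91 ± 0.55, adjusted p = 0.020).

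Replicate 1 decides much of the Ccl3 value in WT astrocytes. Without replicate 1 of each group, an alternative chosen after seeing the data, its difference was 1.47 (adjusted p = 0.016). Without WT TM-treated replicate 1 alone the call was lost (0.12), as it was without WT control replicate 2 or 3 (0.12 and 0.10). Those control libraries also carried the Ccl4 call (0.070 and 0.061 without them), and the count of members called was 2 without either. The microglia marker sum ran the other way between treatments, at 94.0, 30.7 and 40.5 CPM with TM against 291, 87.5 and 120 CPM in controls, and 7 of 14 of these markers fell and 0 rose. Cx3cr1, which marks microglia, had 0.399, 0 and 0.107 CPM with TM, against 13.6, 1.97 and 2.66 CPM in controls. The part of microglia in the Ccl3 and Ccl4 levels was not tested. Without WT TM-treated replicate 1, Il6, Ccl5 and Lif were called in place of Ccl3 (0.023, 0.036 and 0.049).

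Ccl2 and Ccl7 of WT astrocytes did not pass the test. Ccl2 averaged 299 ± 114 CPM with TM and 341 ± 107 CPM in controls (-0.21 ± 0.31, adjusted p = 0.60), and Ccl7 46.9 ± 22.5 CPM with TM and 45.7 ± 19.0 CPM in controls (0.02 ± 0.40, adjusted p = 0.97). Il6 had 7.58, 21.6 and 30.5 CPM with TM, against 2.83, 9.09 and 13.1 CPM in controls (1.24 ± 0.59, adjusted p = 0.11). Ccl5 had 47.1, 142 and 266 CPM with TM, against 9.59, 55.5 and 83.3 CPM in controls (1.60 ± 0.77, adjusted p = 0.11). In each of these 2 genes the TM library was above the control library of the same replicate number in all 3 pairs. Same-numbered astrocyte libraries deviated together (r of 0.22 to 0.53 across genes), but the titles give no shared origin for a number. With the number as a block 6 members rose, Il6 (1.26, adjusted p = 4.8e-05) and Ccl5 (1.71, adjusted p = 2.5e-05) being added. The block called 31.6% of all tested genes higher and 34.1% lower. Lif (0.33 ± 0.39) and Ccl20 (-0.37 ± 0.49) did not pass the test in either fit.

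**Figure D3:**
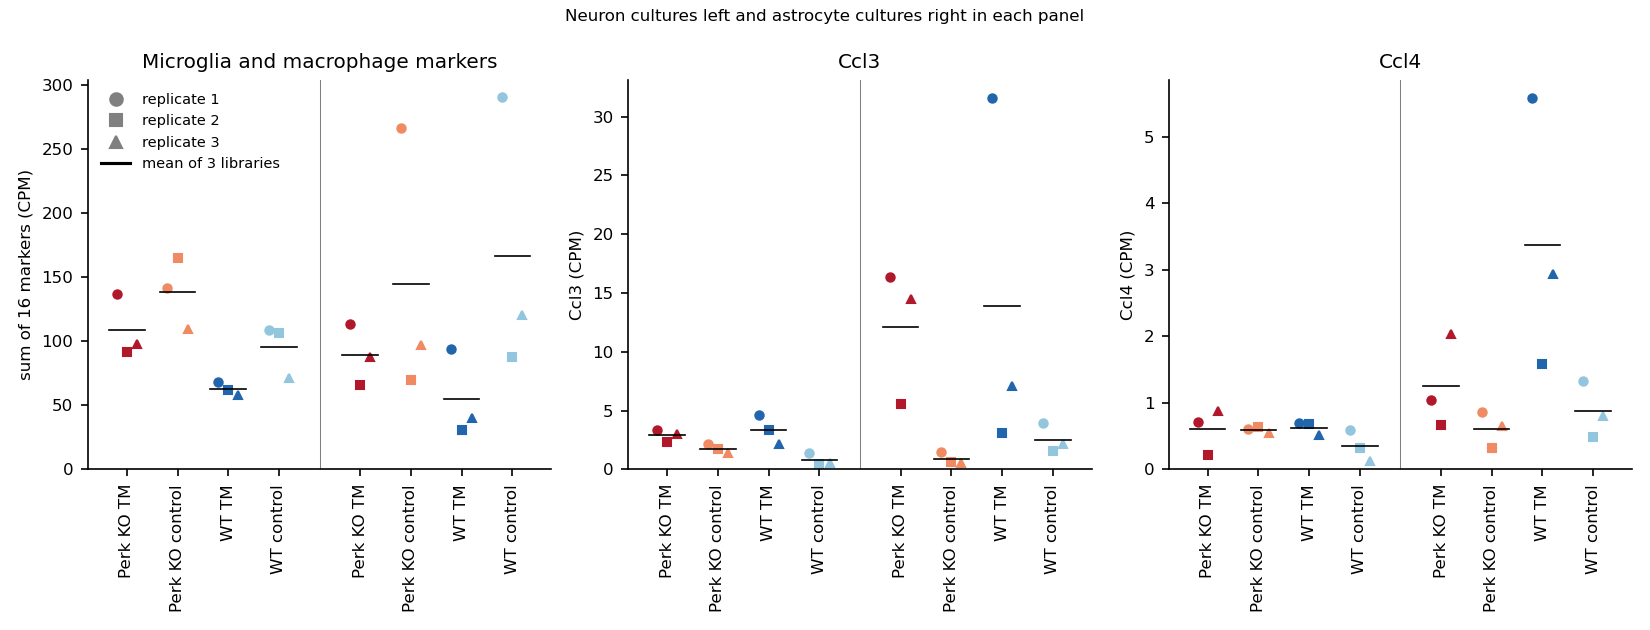
Summed CPM of 16 microglia and macrophage markers (left), and CPM of Ccl3 (middle) and Ccl4 (right), in each library by group; points are marked by replicate number and bars are means of 3. In astrocytes replicate 1 has the highest marker sum of each group, up to 291 CPM, and the highest Ccl3 in each group, up to 31.6 CPM.

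In Perk KO astrocytes TM was followed by a rise of 5 of 10 members and 0 falls, against 5.55% of 15164 tested genes higher and 4.60% lower. Here Ccl2 and Ccl7 were among those that rose. Ccl2 had 146, 185 and 165 CPM with TM, against 32.3, 58.3 and 61.0 CPM in controls (1.71 ± 0.22, 3.26-fold, adjusted p = 0.0014). Ccl7 had 22.6, 26 and 23.8 CPM with TM, against 4.13, 7.37 and 9.49 CPM in controls (1.78 ± 0.25, 3.44-fold, adjusted p = 0.0024). Ccl3 had 16.4, 5.55 and 14.5 CPM with TM, against 1.5, 0.655 and 0.539 CPM in controls (3.74 ± 0.49, 13.4-fold, adjusted p = 0.0017). No group overlapped for these 3 genes.

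The CXCR2 ligands rose in Perk KO astrocytes too, from a lower control level than in WT. Cxcl1 averaged 41.5 ± 14.8 CPM with TM and 11.8 ± 4.22 CPM in controls (1.81 ± 0.31, adjusted p = 0.0059). Cxcl2 averaged 17.0 ± 6.76 CPM with TM and 3.63 ± 2.29 CPM in controls (2.22 ± 0.49, adjusted p = 0.022), a call lost without Perk KO control replicate 2 or Perk KO TM-treated replicate 2 or 3 (adjusted p = 0.062 to 0.077). With the replicate block 7 members rose, Ccl5 (1.25, adjusted p = 0.00013) and Ccl20 (0.85, adjusted p = 0.036) being added to these 5, against 14.4% of all tested genes higher and 13.8% lower. Without the block these were at 1.18 ± 0.49 (adjusted p = 0.19) and 0.79 ± 0.54 (0.44). Il6 did not pass the test, at 0.314, 1.17 and 1.63 CPM with TM and 0.752, 0.928 and 1.24 CPM in controls (0.08 ± 0.53). Lif (-0.16 ± 0.17) and Ccl4 (1.01 ± 0.51, adjusted p = 0.28) did not pass it either. Of 14 microglia markers 1 fell, Cx3cr1 (-5.02 ± 1.20), and 0 rose.

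Perk KO astrocytes held less of most members than WT astrocytes already without TM. In controls 6 of 10 members were lower and 0 higher, against 10.2% of 15196 tested genes lower and 4.71% higher. Ccl2 had 32.3, 58.3 and 61.0 CPM in Perk KO astrocytes, against 218, 404 and 402 CPM in WT astrocytes (-2.74 ± 0.31, 6.67-fold lower, adjusted p = 0.0066). Ccl7 had 4.13, 7.37 and 9.49 CPM in Perk KO, against 25.8, 47.8 and 63.6 CPM in WT astrocytes (-2.69 ± 0.38, adjusted p = 0.0099). Cxcl1 had 7.68, 16.1 and 11.6 CPM in Perk KO, against 38.0, 85.6 and 77.0 CPM in WT astrocytes (-2.49 ± 0.35, adjusted p = 0.0099). For these genes every Perk KO library lay below every WT library.

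The other 3 called members of control astrocytes were Cxcl2, Il6 and Lif. Cxcl2 had 1.07, 4.31 and 5.50 CPM in Perk KO, against 14.8, 32.9 and 45.5 CPM in WT astrocytes (-3.08 ± 0.56, 8.43-fold lower, adjusted p = 0.015). Il6 had 0.752, 0.928 and 1.24 CPM in Perk KO, against 2.83, 9.09 and 13.1 CPM in WT astrocytes (-3.07 ± 0.54, 8.41-fold lower, adjusted p = 0.014). Lif had 23.1, 24.4 and 27.4 CPM in Perk KO, against 39.4, 68.5 and 79.5 CPM in WT astrocytes (-1.31 ± 0.23, 2.47-fold lower, adjusted p = 0.014). Again no libraries of the 2 genotypes overlapped. Ccl5 (-2.36 ± 0.74, adjusted p = 0.067), Ccl20 (-1.49 ± 0.46, adjusted p = 0.064) and Ccl3 (-1.48 ± 0.49, adjusted p = 0.078) did not pass the test without the replicate block and passed it with the block (2.6e-05, 0.0052 and 0.0045). With the block 9 members were lower, all but Ccl4 (-0.51 ± 0.50 without the block), against 19.6% of all tested genes lower and 18.1% higher. Without WT control replicate 2 only Ccl2 was called, the other 5 having adjusted p of 0.055 to 0.069, and without Perk KO control replicate 2 Ccl2, Ccl7 and Cxcl1 were. Without replicate 1 of each group 9 members were lower, and 0 of 15 microglia markers were called in this comparison.

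With TM, 8 of 10 members were lower in Perk KO than in WT astrocytes and 0 higher, against 31.2% of 14927 tested genes lower and 32.1% higher. Il6 differed most, with 0.314, 1.17 and 1.63 CPM in Perk KO, against 7.58, 21.6 and 30.5 CPM in WT astrocytes (-4.23 ± 0.62, 18.8-fold lower, adjusted p = 0.00046). Cxcl2 had 9.47, 18.8 and 22.6 CPM in Perk KO, against 59.2, 157 and 256 CPM in WT astrocytes (-3.18 ± 0.52, 9.07-fold lower, adjusted p = 0.00082). Ccl5 had 11.7, 21.4 and 31.7 CPM in Perk KO, against 47.1, 142 and 266 CPM in WT astrocytes (-2.78 ± 0.59, 6.87-fold lower, adjusted p = 0.0033). No libraries overlapped between genotypes for these 3 genes, nor for Cxcl1 (-2.03 ± 0.29, adjusted p = 0.00042) and Lif (-1.79 ± 0.37, adjusted p = 0.0027).

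Ccl2 and Ccl7 differed less between the genotypes of astrocytes after TM than in controls. Ccl2 averaged 165 ± 19.4 CPM in Perk KO and 299 ± 114 CPM in WT astrocytes with TM (-0.82 ± 0.25, 1.76-fold lower, adjusted p = 0.020). Ccl7 averaged 24.1 ± 1.75 CPM in Perk KO and 46.9 ± 22.5 CPM in WT astrocytes (-0.92 ± 0.32, adjusted p = 0.032), and Ccl4 1.25 ± 0.704 CPM in Perk KO and 3.37 ± 2.03 CPM in WT astrocytes (-1.40 ± 0.54, adjusted p = 0.049). These 3 calls were lost together without Perk KO TM-treated replicate 1 (adjusted p = 0.068, 0.088 and 0.13), which leaves 5. Ccl2 was lost also without Perk KO TM-treated replicate 3 (0.062), Ccl7 without Perk KO TM-treated replicate 2 or 3 or WT TM-treated replicate 2 or 3 (0.063 to 0.11), and Ccl4 without Perk KO TM-treated replicate 2 or WT TM-treated replicate 1 or 3 (0.065 to 0.17). Ccl20 (-0.34 ± 0.56) and Ccl3 (-0.16 ± 0.73) did not pass the test. Ccl3 turned to 1.28, higher in the Perk KO, without WT TM-treated replicate 1 (adjusted p = 0.041), and to 1.00 without replicate 1 of each group (0.084). Astrocyte markers were higher in Perk KO astrocytes with TM in 11 of 12 cases and lower in 0, with sums of 2686 to 3230 CPM against 757 to 839 CPM in WT astrocytes.

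The differences between responses were tested as interactions. In neurons the TM response of Perk KO exceeded that of WT for Ccl2 (1.49 ± 0.39, adjusted p = 0.013) and fell short of it for Cxcl1 (-1.24 ± 0.43, adjusted p = 0.044). With 1 higher and 1 lower of 8 members tested, the counts are near the shares of all 15939 tested genes, 14.5% higher and 15.4% lower. The Cxcl1 call was lost without any 1 of 9 of the 12 libraries (adjusted p = 0.056 to 0.13), the exceptions being WT control replicate 2, Perk KO control replicate 3 and Perk KO TM-treated replicate 1. For Cxcl2 the interaction (-0.73 ± 1.25, adjusted p = 0.69) has a wide error, since its controls hold few counts. With the block Ccl3 was called as well (-1.50, adjusted p = 0.028), where it was at -1.48 ± 0.57 (0.070) without the block. The block called 15.5% of all tested genes higher and 16.5% lower. Same-numbered TM and control neurons correlated at -0.20 to 0.22, in part under the limit set for pairing, so the block may not hold there. In astrocytes the Perk KO response exceeded the WT response for Ccl2 (1.89 ± 0.44, adjusted p = 0.0058) and Ccl7 (1.75 ± 0.55, adjusted p = 0.028), 2 of 10 members, and 0 fell short. This too is near the shares of all 15114 tested genes, 19.8% higher and 14.6% lower. The Ccl7 call was lost without any 1 of 6 libraries (0.051 to 0.066), namely WT control replicate 2 or 3, WT TM-treated replicate 2, Perk KO control replicate 1 or 2, and Perk KO TM-treated replicate 2. With the block 5 astrocyte interactions were higher (Ccl2, Ccl7, Ccl3, Ccl20 and Cxcl1) and 1 lower (Il6, -1.26, adjusted p = 0.010), against 26.4% of all tested genes higher and 22.9% lower.

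The TM responses of neurons and astrocytes were compared within each genotype. In WT cultures the response was larger in neurons than in astrocytes for Cxcl1 (2.51 ± 0.49, adjusted p = 0.0029) and Ccl2 (1.72 ± 0.47, adjusted p = 0.017), 2 of 10 members, against 12.4% of 15712 tested genes higher and 12.5% lower. Cxcl2 was near the threshold (2.91 ± 1.04, adjusted p = 0.057), and with the block Cxcl2 and Ccl7 were called as well, against 15.7% of all tested genes higher and 14.9% lower. In Perk KO cultures the response was larger in neurons for Ccl2 (1.51 ± 0.33, adjusted p = 0.013) and smaller for Ccl3 (-2.97 ± 0.61, adjusted p = 0.0099), against 6.90% of 16059 tested genes higher and 4.78% lower. In both genotypes these counts are near the shares of all tested genes. With the block Cxcl1 and Cxcl2 were called there as well, against 9.97% higher and 7.32% lower. The 3-way interaction of cell type, genotype and TM called 0 of 10 members, against 2.08% of 15924 tested genes higher and 3.43% lower. With the block it called Ccl3 (-3.09, adjusted p = 0.020) and Cxcl1 (-1.51, adjusted p = 0.022), against 4.87% of all tested genes higher and 6.70% lower. Without WT TM-treated astrocytes replicate 1 it called Ccl3 (0.019). The limit of the block in TM and control neurons applies to the block calls of this paragraph too.

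Whether Perk loss acted differently on neurons and astrocytes was tested with 2 further interactions, chosen after the data were seen. In controls the Perk KO difference was higher in neurons than in astrocytes for 5 of 10 members, against 11.9% of 15938 tested genes, and lower for 0, against 8.43%. These were Ccl7 (3.65 ± 0.54, adjusted p = 0.0027), Ccl2 (3.23 ± 0.46, adjusted p = 0.0025), Ccl3 (2.63 ± 0.72, adjusted p = 0.024), Cxcl1 (2.57 ± 0.58, adjusted p = 0.010) and Lif (1.41 ± 0.39, adjusted p = 0.023). Ccl3 was lost without any 1 of 4 libraries (0.052 to 0.054), namely Perk KO control astrocytes replicate 2 or 3, Perk KO control neurons replicate 1 and WT control neurons replicate 2. Lif was lost without any 1 of 5 (0.055 to 0.066), namely Perk KO control neurons replicate 2 or 3, WT control astrocytes replicate 2 or 3, and WT control neurons replicate 1. With the block 7 members were higher, Il6 (3.45, adjusted p = 0.036) and Ccl5 (2.71, adjusted p = 0.0031) being added, against 18.3% of all tested genes higher and 15.6% lower. With TM the Perk KO difference was higher in neurons for Ccl5 (3.68 ± 0.82, adjusted p = 0.0067), Ccl2 (2.96 ± 0.36, adjusted p = 0.00015), Ccl7 (2.32 ± 0.45, adjusted p = 0.0029) and Cxcl1 (1.05 ± 0.36, adjusted p = 0.049), 4 of 10, against 13.3% of 15872 tested genes higher and 12.7% lower. That Cxcl1 call was lost without any 1 of 10 of the 12 libraries (0.058 to 0.14), all but WT TM-treated astrocytes replicate 1 and Perk KO TM-treated astrocytes replicate 2. With the block 7 members were higher, Il6, Ccl20 and Lif being added, against 19.0% of all tested genes higher and 15.9% lower. Without WT TM-treated astrocytes replicate 1, 7 members were called. Il6 and Ccl20, near nothing in neurons, entered these interactions only through their astrocyte counts.

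Neighbouring genes were also compared by their proportion within a library. The pair Ccl2 and Ccl7 held a like proportion in the 4 astrocyte groups, at 14.7 ± 0.714 Ccl7 counts per 100 Ccl2 counts in Perk KO with TM, 13.7 ± 1.63 in Perk KO controls, 15.2 ± 2.11 in WT with TM and 13.2 ± 2.29 in WT controls (SD, n = 3). In neurons it was 8.47 ± 2.85 in Perk KO with TM against 31.4 ± 12.5 in Perk KO controls, without overlap, and 13.6 ± 3.23 in WT with TM against 23.8 ± 7.57 in WT controls, with overlap. Cxcl2 per 100 Cxcl1 counts was 9.61 ± 1.51 in Perk KO neurons with TM and 28.4 ± 7.25 in WT neurons with TM. The single Perk KO values of 9.21, 11.3 and 8.33 lie below the WT values of 35.9, 21.4 and 27.7. In TM-treated astrocytes it was 41.4 ± 13.4 in Perk KO and 85.7 ± 42.3 in WT, with overlap. These ratios are given without a test, as 3 libraries against 3 cannot reach an exact p under 0.10.

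**Figure D4:**
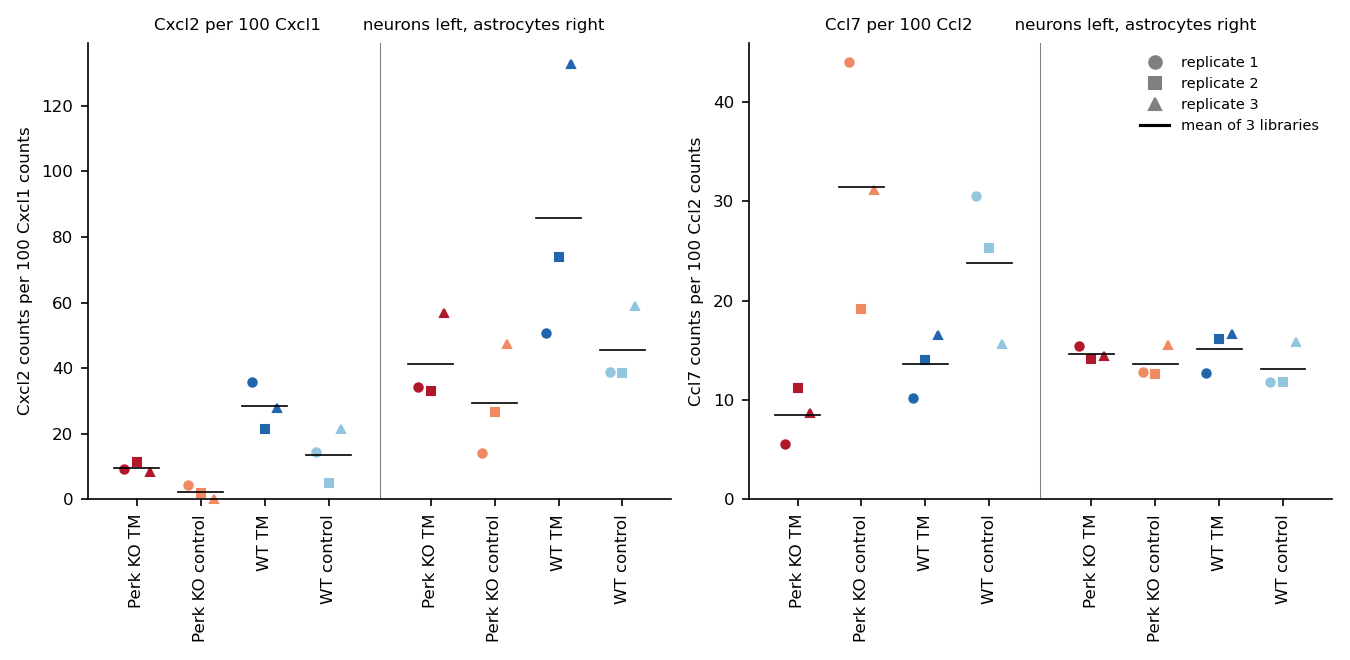
Cxcl2 counts per 100 Cxcl1 counts (left) and Ccl7 counts per 100 Ccl2 counts (right) in each library, neurons left of the line and astrocytes right of it; bars are means of 3 libraries. The Ccl7 proportion lies between 11.8 and 16.6 in all 12 astrocyte libraries, and the Cxcl2 proportion is lower in Perk KO than in WT neurons with TM.

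Genes of the NF-kB pathway were read as a list of 22 subunits, inhibitors and targets. In control astrocytes 18 of 22 were lower in Perk KO than in WT cultures and 0 higher, with a median of -1.20 against 0.03 over all tested genes. Among all tested genes 10.2% were lower and 4.71% higher. Examples are the subunit Relb (-1.91 ± 0.18), the inhibitor Nfkbie (-2.26 ± 0.22) and the adhesion molecule Icam1 (-1.55 ± 0.12). With TM 10 of 22 were lower in Perk KO astrocytes and 3 higher, with the prostaglandin synthase Ptgs2 (-3.36 ± 0.45) and the adaptor Traf1 (2.60 ± 0.20) at the ends. The shares of all tested genes were 31.2% lower and 32.1% higher. The TM response itself was called higher in 11 of 22 in Perk KO astrocytes, Nfkb2 (1.12 ± 0.13) and Nfkbia (0.90 ± 0.08) among them, and lower in 0. The shares of all tested genes were 5.55% higher and 4.60% lower. In WT astrocytes it was called higher in 4 and lower in 7, Icam1 (-1.45 ± 0.13) and Traf1 (-2.35 ± 0.24) among those that fell. These counts are near the shares of all tested genes, 25.0% higher and 27.7% lower.

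Against 13.1% of all tested genes higher and 10.8% lower, the same list rose with TM in 15 of 22 in Perk KO neurons. It had 0 falls and a median of 0.77 against 0.02 over all tested genes. Tnfaip2 (2.17 ± 0.28), Traf1 (1.80 ± 0.18) and Nfkb2 (1.35 ± 0.14) were among those that rose. In WT neurons 9 of 22 rose and 5 fell, against 27.0% and 24.8% of all tested genes. Ptgs2 (2.61 ± 0.19) and Nfkb2 (1.75 ± 0.17) are examples of a rise and Sod2 (-0.72 ± 0.08) of a fall. Between genotypes, 9 of 21 were higher and 3 lower in TM-treated Perk KO than WT neurons, against 20.7% and 19.4% of all tested genes. These included the inhibitor Nfkbia (1.74 ± 0.18) and also Nfkbiz (2.16 ± 0.17), which were higher, and Ptgs2 (-2.45 ± 0.23), which was lower. In control neurons 2 were higher (Chuk and Icam1) and 1 lower (Nfkbie), against 12.2% and 9.16% of all tested genes.

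**Figure D5:**
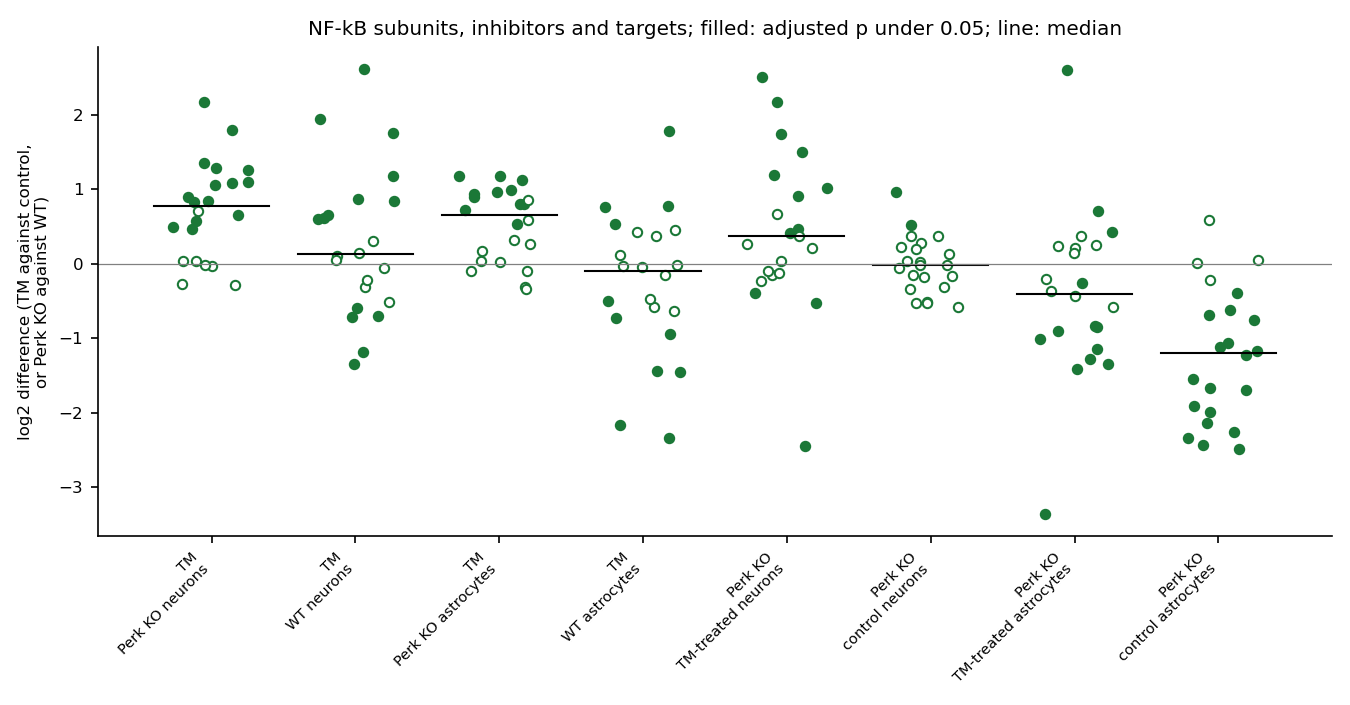
Log2 differences of the NF-kB list in the 4 TM comparisons, on the left, and the 4 Perk KO comparisons, on the right; each point is a gene, filled where it passed an adjusted p of 0.05, and lines are medians. The median is 0.77 for TM in Perk KO neurons and -1.20 for Perk KO in control astrocytes.

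Other lists around the members moved as follows. Of 14 AP-1, C/EBP and ATF factors, 7 rose and 4 fell with TM in WT neurons, led by Atf3 (4.69 ± 0.13) and Ddit3 (4.45 ± 0.10), and 7 rose and 1 fell in Perk KO neurons (Atf3 4.13 ± 0.13). Among all tested genes 27.0% rose and 24.8% fell in WT neurons, and 13.1% rose and 10.8% fell in Perk KO neurons. In Perk KO against WT astrocytes 10 were lower and 1 higher with TM (Atf4 -2.22 ± 0.20, Atf3 -2.73 ± 0.28), and 8 were lower and 0 higher in controls. The shares of all tested genes were 31.2% lower and 32.1% higher with TM, and 10.2% and 4.71% in controls. The innate receptor Tlr2, one of 23 innate receptors and adaptors, had 101, 52.0 and 59.5 CPM in Perk KO neurons with TM, against 5.75, 4.59 and 6.32 CPM in WT neurons with TM (3.66 ± 0.28, adjusted p = 6e-05). In that comparison 13 of 19 tested of its list were higher and 0 lower, against 20.7% and 19.4% of all tested genes. In WT astrocytes Tlr2 fell with TM (-2.39 ± 0.22), and in Perk KO astrocytes it rose (1.71 ± 0.15).

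Of 36 further cytokine and chemokine genes, 19 could be tested in TM-treated neurons. There 12 had higher levels in the Perk KO, Cxcl5 (2.29 ± 0.34) and Il18 (2.45 ± 0.29) among them, and 1 a lower level. The shares of all tested genes were 20.7% and 19.4%. In control astrocytes 8 of 25 tested were lower in the Perk KO and 0 higher, against 10.2% and 4.71% of all tested genes. Those included the interferon-inducible Cxcl9 (-3.50 ± 0.54), Cxcl10 (-2.43 ± 0.33) and Cxcl11 (-4.21 ± 0.47). Of the 16 genes for receptors of the members, 6 or 7 had enough counts to be tested in each comparison, and those called included gp130 (Il6st), which rose with TM in WT neurons (0.67 ± 0.08) and in Perk KO neurons (0.80 ± 0.09). Lifr, the LIF receptor, fell with TM in WT neurons (-1.04 ± 0.18) and WT astrocytes (-2.07 ± 0.19), and with TM it was higher in Perk KO than in WT in neurons (1.77 ± 0.21) and astrocytes (2.27 ± 0.19). Of 11 factors that act on cytokine mRNA decay, 6 were lower and 1 higher in Perk KO than in WT astrocytes with TM. The shares of all tested genes were 31.2% lower and 32.1% higher. Of 13 genes of JAK-STAT3 signalling, 3 were higher and 4 lower in that comparison, against 32.1% and 31.2% of all tested genes. In control astrocytes 0 of the 13 were higher and 5 lower in the Perk KO, against 4.71% and 10.2% of all tested genes. Among the decay factors, Zfp36l1 (1.29 ± 0.12) was the one higher, and Arid5a (-2.33 ± 0.29), a protein known to stabilise Il6 mRNA, was among the lower.

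The genes whose levels followed each member most closely over the 24 libraries were found by Pearson's r of log2(CPM + 0.5) among 15924 genes. The libraries share cell type and treatment, so r describes them and carries no test. Ccl2 was closest to Ripk2 (r = 0.98, and 0.96 within the 12 neuron and 0.93 within the 12 astrocyte libraries), an adaptor kinase of NF-kB signalling, and to Cxcl10 (0.97). Ccl5 was closest to Rela and Dennd2c (0.96 each), Ccl7 to Stx11 (0.97) and Nfkb2 (0.96), Ccl20 to Tnfaip3 and Birc3 (0.96 each), and Ccl3 to Tnf (0.92) and Ly9 (0.90). Within the neuron libraries r was lower, at 0.85 and 0.95 for Ccl5, 0.64 and 0.62 for Ccl7, 0.67 and 0.68 for Ccl20 and 0.85 and 0.60 for Ccl3, in the order named. Within the astrocyte libraries it was 0.94 and 0.94 for Ccl5, 0.94 and 0.96 for Ccl7, 0.82 and 0.80 for Ccl20 and 0.95 and 0.96 for Ccl3. Cxcl1 and Cxcl2 shared their closest gene, Gadd45a (0.97 and 0.98), a stress-induced growth arrest gene, which also followed Cxcl2 within neurons (0.98) and astrocytes (0.98). Lif was closest to Smtn (0.99), and Il6 to Abtb2 (0.97), which Il6 followed within astrocytes (0.95) and not within neurons (0.05), where Il6 is nearly absent. Ccl4 was closest to Txndc17 (0.86), the lowest r of a closest gene over the 24 libraries. The second closest genes were Akap12 for Lif (0.99), Gm37565 for Il6 (0.97), Btg3 for Cxcl1 (0.97), Zfp110 for Cxcl2 (0.98) and Sardh for Ccl4 (0.83).

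In the authors' deposited tables, which hold DESeq2 results, members were higher in 5 and lower in 0 cases for TM in Perk KO neurons, 5 and 0 for TM in WT neurons, 5 and 0 for TM in Perk KO astrocytes and 4 and 0 for TM in WT astrocytes. For Perk KO against WT the authors' deposited tables gave 2 higher and 2 lower in TM-treated neurons, 0 and 0 in control neurons, 0 and 8 in TM-treated astrocytes and 0 and 8 in control astrocytes. Each count is out of 10 members. The share of all genes called in those tables was not counted, so these counts only describe the members.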

How the data were processed

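Raw read counts per gene were deposited for 24 libraries of total RNA, in 8 tables of 6 libraries, per the file headers. Per the submitters' processing notes the tools were fastp, HISAT2, featureCounts and DESeq2, with the genome build GRCm38.p6. The log2 fold changes, p-values and gene lengths of the deposited tables are the authors' own. Versions and annotation release are not given in the sources used here. A library appears in 2 tables with identical counts (0 differences). The labels name no strand-marking kit, so reads of overlapping genes cannot be told apart. Without molecular identifiers PCR copies count as reads, so intervals cover counting error only.

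Tests used edgeR 4.0.16 (R 4.3.3) with TMM and the quasi-likelihood F test, on the libraries of each comparison. Genes averaging 10 or more counts entered, with Benjamini-Hochberg adjustment over all genes tested. The standard error is the log2 difference divided by the square root of F. Scripts were tested on simulated data. Alternatives were DESeq2 1.42.0, its size factors in edgeR, no filter, a replicate block, a GC correction over 20 bins, shared fits and each library left out. The members and lists were chosen with earlier results of these data known. All members are named, and up to 4 called genes of a list with the smallest p. The GC correction uses GENCODE transcripts of GRCm38. Replicate pairs differed beyond sampling noise, with a chi-square per gene of 7.06 to 70.6.

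Replicate numbers are those in the titles. Across genes, deviations from group means of same-numbered libraries correlated at 0.22 to 0.53 in all astrocyte pairs of groups and at 0.13 to 0.30 between Perk KO and WT neurons with TM, over the limit of 0.1 set for pairing. They correlated at 0.21, 0.093 and 0.24 between Perk KO and WT control neurons and at -0.20 to 0.22 between TM and control neurons, under it in part. Promoter windows are RefSeq's, from 250 bases before to 50 after a start.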

Additional observations from a re-analysis of the deposited data

Results flagged for a closer look

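These are differences between 2 groups' responses that passed the interaction test, given as values only. For the TM response in Perk KO against WT neurons they were Ccl2 (1.49) and Cxcl1 (-1.24). In astrocytes they were Ccl2 (1.89) and Ccl7 (1.75). For the TM response of neurons against astrocytes they were Cxcl1 (2.51) and Ccl2 (1.72) in WT cultures, and Ccl2 (1.51) and Ccl3 (-2.97) in Perk KO cultures. In all these tests of the TM response, the counts of members called were near the shares of all tested genes. For the Perk KO difference of neurons against astrocytes in controls they were Ccl7 (3.65), Ccl2 (3.23), Ccl3 (2.63), Cxcl1 (2.57) and Lif (1.41). With TM they were Ccl5 (3.68), Ccl2 (2.96), Ccl7 (2.32) and Cxcl1 (1.05). Ccl2 was the member that passed in all 6 of these tests.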

How the results depend on the processing

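The count of members called changed by over 1.5 times as follows, and the cause was not tested. For Perk KO against WT control neurons it was 1, against 0 with DESeq2 or the GC correction and 0 to 2 without 1 library. For TM in WT astrocytes it was 4, against 7 with the GC correction and replicate block, 7 without replicate 1 of each group, and 2 to 6 without 1 library. Leaving out 1 library gave 1 to 8 for Perk KO against WT control astrocytes and 5 to 8 with TM. For the genotype by TM interaction in neurons the count was 1 with DESeq2 size factors, the GC correction or all 24 libraries in the fit, and 1 to 2 without 1 library. In astrocytes it was 6 with the replicate block, alone or with the GC correction, and 1 to 3 without 1 library. The cell type by TM interaction gave 4 in WT and 4 in Perk KO with the block, alone or with the GC correction, and the 3-way interaction 2, and 0 to 1 without 1 library. The cell type by genotype interaction with TM gave 7 with the block, alone or with the GC correction, or with no filter on low counts, and 3 to 7 without 1 library.

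Pairing by replicate number was not shown for TM and control neurons, where the replicate block changed no call of a member. For neurons against astrocytes, numbers within a cell type leave no residual degrees of freedom in 6 libraries, so the planned block, alone or with the GC correction, was not run. With numbers shared by both cell types, an alternative chosen after seeing the data, the replicate block gave 9 members called in WT controls, 10 in WT with TM, 9 in Perk KO controls and 9 in Perk KO with TM. It added Ccl3 in Perk KO controls (1.05, adjusted p = 0.046) and turned Ccl4 there to 0.026. Deviations of same-numbered libraries correlated at -0.089 to 0.19 between cell types, so pairing was not shown there either. Values near 0 changed sign with the block, alone and then with the GC correction: Ccl4 for TM in Perk KO neurons (-0.015 and -0.074), Il6 for TM in Perk KO astrocytes (-0.0089 and -0.029), Ccl3 for Perk KO against WT astrocytes with TM (0.25 and 0.18, and 1.00 without replicate 1 of each group) and Ccl3 for cell type by genotype with TM (-0.41 and -0.44). With the block alone did Ccl7 for TM in WT astrocytes (-0.010), Cxcl2 for genotype by TM in astrocytes (0.031) and Ccl3 for cell type by TM in WT (0.077). Cxcl1 in control neurons turned to -0.11 with the GC correction and -0.032 with the block added. With DESeq2 size factors and DESeq2, Ccl4 of neurons against astrocytes in Perk KO controls turned to 0.0055 and 0.0065, Ccl5 for cell type by TM in WT to 0.0086 and 0.036 (0.11 with no filter), and Ccl3 for cell type by genotype with TM to -0.082 and -0.091 (-0.00027 with no filter, -0.021 with the GC correction and -0.0037 with all 24 libraries).

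Without 1 library, 29 values crossed 0. One of these crossings passed the test, that of Ccl3 in Perk KO against WT astrocytes with TM (-0.63 to 1.28). For TM in neurons these were Lif in WT (-0.16 to 0.20) and Ccl4 in Perk KO (-0.28 to 0.43). For Perk KO in neurons they were Cxcl1 (-0.17 to 0.63) and Lif (-0.038 to 0.39) in controls, and Ccl3 (-0.46 to 0.084) and Ccl4 (-0.37 to 0.34) with TM. In astrocytes they were Ccl20 (-1.10 to 0.029), Ccl7 (-0.36 to 0.35) and Ccl2 (-0.51 to 0.050) for TM in WT, Il6 (-0.40 to 0.52) and Lif (-0.31 to 0.015) for TM in Perk KO, and Ccl20 (-0.73 to 0.40) for Perk KO with TM. Of neurons against astrocytes it was Ccl4 in Perk KO controls (-0.32 to 0.30). Of genotype by TM they were Ccl5 (-0.33 to 0.65) and Cxcl2 (-1.24 to 0.029) in neurons, and Ccl5 (-1.07 to 0.24) and Cxcl2 (-0.56 to 0.41) in astrocytes. Of cell type by TM they were Ccl3 (-0.87 to 1.07), Ccl20 (-1.55 to 2.99) and Ccl5 (-0.62 to 0.66) in WT, and Il6 (-1.11 to 0.26) in Perk KO. Of the 3-way interaction they were Ccl4 (-0.52 to 0.68), Il6 (-0.31 to 0.99), Ccl20 (-0.31 to 5.51), Lif (-0.46 to 0.18) and Cxcl2 (-1.02 to 0.28). Of cell type by genotype they were Ccl20 in controls (-2.46 to 3.36) and Ccl3 with TM (-1.44 to 0.47). Depth limits Il6, Ccl20 and Ccl4 in neurons and Cxcl2 in control neurons, where libraries hold few counts.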
